A study of Mus musculus with 4 samples.

Results

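A set of 7 genes for cell to cell contact in the osteoblast lineage were examined for Runx2 binding: the cadherins *Cdh2*, *Cdh11* and *Cdh4*, the connexins *Gja1* and *Gjc1*, and the pannexins *Panx1* and *Panx3*. They were chosen by name and are 7 of the 22372 protein-coding genes in GENCODE version M1, annotated on the mouse assembly mm9. Every Runx2 peak that overlapped by at least 1 bp the body of one of these genes, widened by 20 kb on each side, was counted as a peak of that gene, and this stretch is called its window. Of the 25457 peaks of day 0, 10 lay in these windows, as did 45 of the 60596 of day 9 and 25 of the 40330 of day 28. Overlapping peaks of different time points were joined, which gave 53 of the 67703 merged regions of the series.

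Chromatin came from MC3T3-E1 subclone 4, a preosteoblast line derived from mouse calvaria (strain C57BL/6, passages 28-31), and was precipitated with the Runx2 antibody M70. Cells were proliferating at day 0, depositing matrix at day 9 and mineralizing at day 28, with differentiation induced by ascorbic acid and beta-glycerophosphate. The reads of 2 replicate libraries were pooled at each time point before peaks were called, so each time point has 1 list and the spread between replicates cannot be measured. Time points are therefore described and not tested. Input DNA from day 9 cells was the control for all 3 lists and was not analysed here. The cells are 1 subclone of the line, and all 3 groups share its genotype.

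Cadherins are transmembrane proteins that hold neighbouring cells together through calcium-dependent binding of their extracellular repeats, while catenins link their tails to actin. Connexins assemble into hexameric channels that dock between cells as gap junctions, through which osteoblasts and osteocytes exchange small molecules. Pannexins form large-pore channels in a single membrane and release ATP. Runx2 is the transcription factor required for osteoblast formation, and its family binds DNA at the core sequence TGTGGT.

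The sequences of 5 regions show what lay under peaks in 4 of these windows. They are printed 5′ to 3′ on the plus strand of mm9 (NCBIM37) with TGTGGT, or its reverse complement ACCACA, in capitals. Those at *Panx3* (chr9:37476971-37477171), at *Cdh4* 158 kb from its start (chr2:179334933-179335133) and at *Cdh11* (chr8:105260319-105260519) cover 100 bp on each side of the centre of a day 9 peak, the highest-scoring one of each gene with that core within 50 bp of its centre. No such peak was found for *Gja1*, *Gjc1* or *Panx1*, and the sequence of the *Cdh2* peak is not printed. A further *Cdh4* sequence, 328 kb from its start (chr2:179504571-179504870), and a sequence near the start of *Gja1* (chr10:56097817-56098017) were added after their values were seen, the first because its peak had the second highest day 9 score at *Cdh4* and the other as an example without the core.
Panx3 promoter: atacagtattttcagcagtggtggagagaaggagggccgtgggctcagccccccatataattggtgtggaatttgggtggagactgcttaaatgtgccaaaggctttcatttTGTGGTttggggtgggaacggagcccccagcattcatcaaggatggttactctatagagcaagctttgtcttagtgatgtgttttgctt
Cdh4 intron 2 at 158 kb: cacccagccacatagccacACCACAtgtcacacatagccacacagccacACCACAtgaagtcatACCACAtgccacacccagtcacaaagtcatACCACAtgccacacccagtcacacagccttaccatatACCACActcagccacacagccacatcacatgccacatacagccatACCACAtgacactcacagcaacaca
Cdh4 intron 2 at 328 kb: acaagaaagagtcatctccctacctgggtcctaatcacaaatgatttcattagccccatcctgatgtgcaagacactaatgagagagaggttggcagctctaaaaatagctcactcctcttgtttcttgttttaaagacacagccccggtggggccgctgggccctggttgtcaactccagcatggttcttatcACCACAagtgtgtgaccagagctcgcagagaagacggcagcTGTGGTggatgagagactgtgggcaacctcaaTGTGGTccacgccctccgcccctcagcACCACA
Cdh11 intron 1 at 48.6 kb: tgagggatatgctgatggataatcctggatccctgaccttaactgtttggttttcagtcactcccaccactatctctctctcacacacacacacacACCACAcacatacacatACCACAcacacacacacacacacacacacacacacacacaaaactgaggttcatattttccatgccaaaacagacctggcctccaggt
Gja1 intron 1 at 811 bp: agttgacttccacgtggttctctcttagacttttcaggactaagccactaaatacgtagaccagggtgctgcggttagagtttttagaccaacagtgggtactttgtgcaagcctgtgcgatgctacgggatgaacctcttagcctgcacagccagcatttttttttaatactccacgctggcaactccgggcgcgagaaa
The *Panx3* promoter held the core once among mixed sequence. The first *Cdh4* sequence carried it 6 times within a tandem array of short related units. The *Cdh11* sequence carried it 2 times within a run of mostly alternating C and A. In the second *Cdh4* sequence, chosen as the 300 bases of its region with the most copies, 4 lay in sequence without such units. That stretch lies beside the peak centre, which had 0 copies within 50 bp. The *Gja1* sequence had none, but it held TGCGGT, a variant that was also searched for and is given further on.

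At day 0, 6 of the 7 genes had at least 1 peak in the window, and at days 9 and 28 all 7 did. Over all protein-coding genes the corresponding shares were 64.9%, 76.9% and 71.2%. *Panx1* was the gene without a day 0 peak. A peak within 1 kb of an annotated start was called for *Cdh11*, *Gjc1* and *Panx3* at day 0, and for 6 of 7 genes, all but *Cdh4*, at days 9 and 28. Among all genes 43.6%, 53.2% and 51.1% had such a peak at days 0, 9 and 28. *Cdh2*, *Gja1* and *Panx1* thus had a peak at the start at both later time points and none there at day 0.

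**Figure D1:**
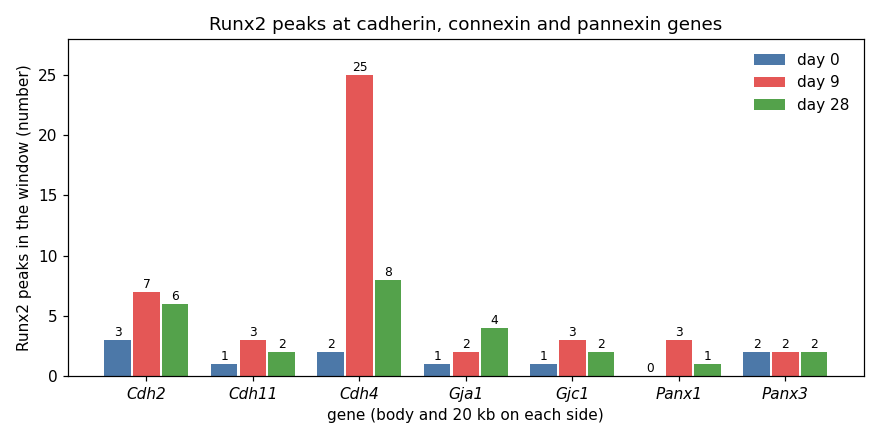
Bars give the number of Runx2 peaks in each gene window (body and 20 kb on each side; vertical axis from 0) at days 0, 9 and 28, from 1 pooled list per time point and therefore without error bars. *Cdh4* stands out at day 9 with 25 peaks, *Gja1* has its most at day 28 with 4, and *Panx3* has 2 at each time point.

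More peaks were called at day 9 than at day 0 for 6 of the 7 genes, the exception being *Panx3*, and the same held for 60.3% of all genes. Fewer were called at day 28 than at day 9 for 5 of 7, against 50.2% of all genes. That direction changed with the setting. With the same number of top-scoring peaks taken from each list 2 of 7 genes had fewer at day 28 and 3 had more. With a score of at least 200 the numbers were 3 and 3. With a score of at least 500 they were 4 with fewer and 1 with more. The whole day 9 list was 2.38 times, and the day 28 list 1.58 times, as long as the day 0 list. More at day 9 than at day 0 and fewer at day 28 than at day 9 were thus also the directions of the lists. With the same number of top-scoring peaks from each list, 5 of 7 genes had more at day 9 than at day 0. The share of all genes at that setting is not given. In the full lists *Gja1* had more at day 28, with 1, 2 and 4 peaks at days 0, 9 and 28. With equal numbers of top-scoring peaks, and with a score of at least 200, *Cdh2* (5 and 6) and *Gjc1* (1 and 2) also had more at day 28 than at day 9. At a score of at least 500 *Gja1* had 1 and 0. *Cdh2* had 3, 7 and 6, *Cdh11* 1, 3 and 2, *Gjc1* 1, 3 and 2, and *Panx1* 0, 3 and 1. The median gene had 1, 2 and 2 peaks.

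*Cdh4* had 2, 25 and 8 peaks and accounted for 25 of the 45 day 9 peaks of the 7 genes. Its count was at percentile 99.5 of all genes at day 9. The body of *Cdh4* spans 457 kb, however, and per length its 5.03 peaks per 100 kb of window at day 9 were at percentile 62.3, against a median of 3.48 over all genes. *Gjc1*, with 3 peaks in a window of 60.1 kb, had nearly the same density at 4.99. The highest density of the 7 genes was 7.53 per 100 kb for *Gja1* at day 28, at percentile 85.9, and at day 0 it was 4.06 for *Panx3*, at percentile 77.5. *Cdh11* had the lowest day 9 density, 1.56.

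**Figure D2:**
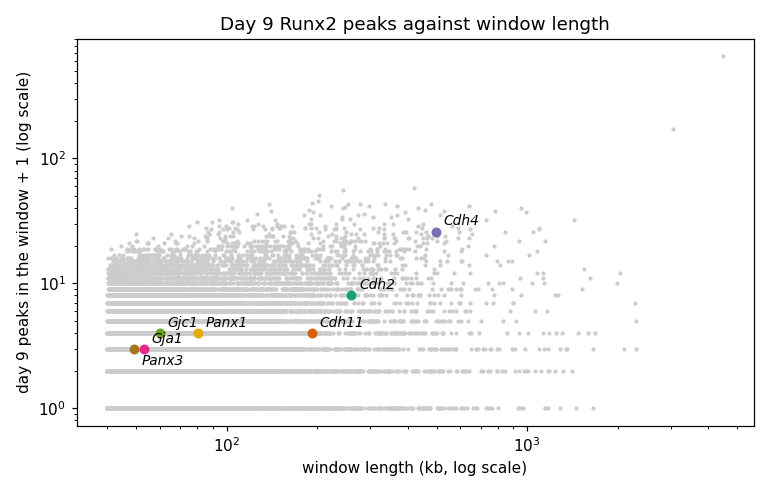
Each grey point is a protein-coding gene, with the length of its window in kb (horizontal, log scale) and its day 9 peaks plus 1 (vertical, log scale), and the 7 genes are coloured. *Cdh4* lies high with 25 peaks but also far to the right, in a window of 497 kb, while *Panx3* and *Gja1* have 2 peaks each in windows of 49.3 and 53.1 kb.

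The strength of each peak is given as a score, the value deposited by the authors and equal to 10 times the negative log10 of the peak caller's p-value, so that a score of 100 stands for the threshold of 1e-10. Scores rise with read depth and the lists hold no read counts, so each peak was ranked by percentile within its own list. The study's read totals were largest for the proliferating cells, whose list was the shortest. A percentile also depends on how many weak peaks its list admits, so percentiles of different time points are given side by side and are no measure of a change in binding. Scores of 3100 or more were treated as 1 tie, with 211, 2910 and 1630 members in the 3 lists, which made 97.6 the highest percentile possible at day 9. The peaks of the 7 genes had median percentiles of 47.9, 34.7 and 49.3 at days 0, 9 and 28. At day 9, 55.6% of them scored under 200, compared with 39.7% of all day 9 peaks, but without *Cdh4* it was 6 of 20 (30%). At day 0 the shares were 20% and 36.0%, and at day 28 they were 32.0% and 32.5%.

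**Figure D3:**
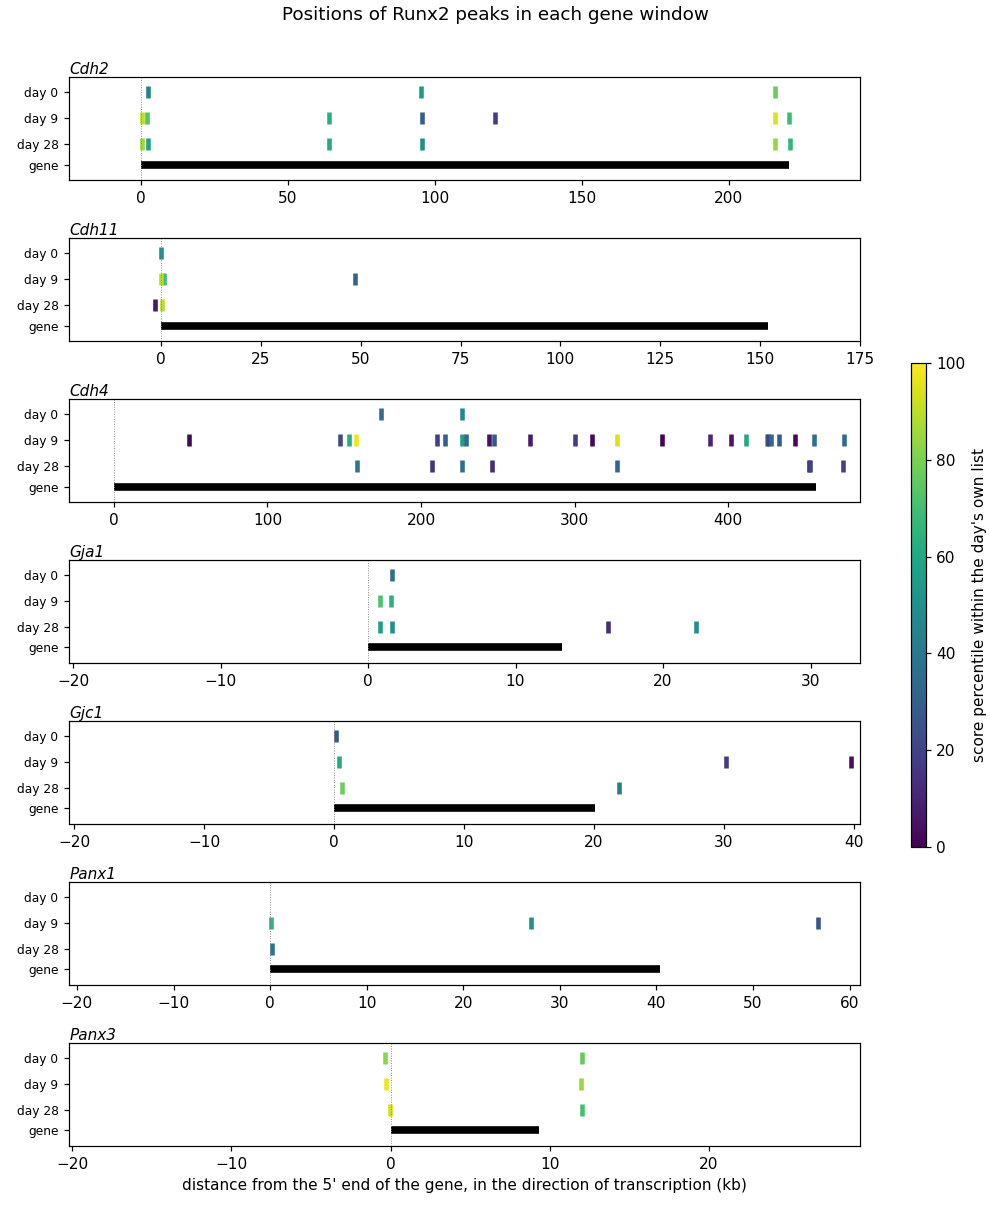
Peaks (ticks) of days 0, 9 and 28 are placed by distance in kb from the 5′ end of each gene in the direction of transcription, with the gene body as a black bar, the start as a dotted line and the score percentile in the day's own list as colour. Peaks sit at the start of 6 genes, while those of *Cdh4* are spread along the body from 48.8 kb onward, mostly at day 9 and low in rank.

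*Cdh2* encodes N-cadherin, which joins mesenchymal and osteoblastic cells. The gene (ENSMUSG00000024304.8) lies on the minus strand of chromosome 18 from 16747386 to 16967755, and its window held 7 regions. The region at its start (16966523-16968215), over the untranslated part of exon 1 and centred 431 bp downstream of the start, had no day 0 peak, a score of 1865 at day 9 (percentile 89.9) and 1431 at day 28 (percentile 85.4). At days 0 and 9 the best-ranked *Cdh2* peak, however, was far from the start, in intron 15 near the end of the gene (16751379-16752460). There the scores were 557.7, 2752 and 1326 at days 0, 9 and 28, at percentiles 76.8, 94.2 and 83.9, and TGTGGT lay within 50 bp of the centre. A region 2.18 kb into the gene, in intron 1, was also called each time, at percentiles 44.1, 73.1 and 58.0. An intron 2 region (16871982-16872909) was at percentiles 53.9, 28.9 and 49.7 of the 3 lists.

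The other 3 *Cdh2* regions had no day 0 peak. The one at the 3′ end scored 516.7 at day 9 and 590.4 at day 28, and one in intron 2 scored 424.1 and 490.1. The last, in intron 2 and with a score of 128.8, was called at day 9 alone. Thus 6 of the 7 *Cdh2* regions were called at both later time points.

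*Cdh11* encodes osteoblast cadherin, which is abundant in cells of mesenchymal origin. It lies on the minus strand of chromosome 8 from 105156895 to 105309011 (ENSMUSG00000031673.5), and 3 regions were found over its 152 kb and flanks. The start of the gene (105307729-105309530) was called each time, with scores of 266.2, 1738 and 1801 at percentiles 49.2, 89.0 and 89.3. At day 9 it held 2 separate peaks, 1 of which, with a score of 553, was centred 833 bp inside the gene. The remaining regions of *Cdh11* were weak, at 111.3 for a day 28 peak centred at -1571 bp from the start and 167.3 for the day 9 peak in intron 1 whose sequence is printed above.

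*Cdh4* encodes R-cadherin, first known from the retina and brain. It lies on the plus strand of chromosome 2 from 179177136 to 179634078 (ENSMUSG00000000305.6) and had no peak within 1 kb of a start at any time point. The nearest of its 30 regions was centred 48.8 kb inside the gene. Intron 2 held 17 regions, other introns 9 and exons 3, and 1 region lay 3′ of the gene within *Taf4a*. Of the 30 regions 26 were called at a single time point, 21 of them at day 9. The 25 day 9 peaks ranged from 100.4 to 3227 with a median of 152.2, and 19 scored under 200.

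Among the *Cdh4* regions 2 stood far above the others, both in intron 2. The region at 158 kb (179334625-179335541) reached 3227 at day 9, within the top tie at percentile 97.6, and the one at 328 kb (179504519-179505227) reached 2876, at percentile 94.6. At day 28 they scored 236.6 and 197.6, at percentiles 38.7 and 32.0, and neither was called at day 0. Regions with such a set of ranks were counted in the whole series. Of 4001 regions in the series with a day 9 score of at least 2500, 31 (0.775%) had no day 0 peak and a day 28 peak below the median of its list, and of those 31, 16 (51.6%) were rich in internal repeats, defined further on, against 3.80% of the 4001. The region at 158 kb was among the repeat-rich ones, with 14 copies of TGTGGT in its 917 bp, and the one at 328 kb was not, with 7 copies in 709 bp. This comparison was made after the values of the *Cdh4* regions were seen, and both regions met its limits. Strong day 9 regions without any day 28 peak were not among the 31. The shares therefore describe this choice of limits and do not measure how unusual the 2 regions are. The single *Cdh4* region called at all 3 time points, 227 kb inside, had percentiles of 46.7, 55.7 and 36.9.

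*Gja1* encodes the main connexin of osteoblasts and osteocytes. It lies on the plus strand of chromosome 10 from 56097106 to 56110225 (ENSMUSG00000050953.8) and had 4 regions, 2 of them in intron 1 and next to each other. The one centred 1584 bp from the start was called each time, with scores of 200.9, 429.4 and 330.8 at percentiles 36.2, 63.7 and 49.9. The one at 811 bp, printed above, was called at day 9 with 611.1 and at day 28 with 408.2. The other pair lay 3′ of the gene and were called at day 28 alone, with 125.9 and 324.6. The 2 peaks by which day 28 exceeded day 9 thus lay outside the gene body. None of its 4 regions had TGTGGT within 50 bp of the centre.

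*Gjc1* encodes a connexin that is present in osteoblasts at lower levels and can share channels with the product of *Gja1*. It lies on the minus strand of chromosome 11 from 102660893 to 102681014 (ENSMUSG00000034520.8). Its start region (102679665-102681384) was called each time, at percentiles 28.0, 61 and 77.7 of the day 0, 9 and 28 lists, with scores of 168.9, 386.1 and 980.5. This region also had the highest GC content of the 53, 81.6% within 100 bp of the centre, and a CpG observed to expected ratio of 1.20. The 3 further regions lay 3′ of the gene and were called once each, with scores of 258.9 at day 28 and of 127.9 and 105.2 at day 9. The weakest of them was within *Adam11*.

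*Panx1* encodes a widely expressed ATP-release channel. It lies on the minus strand of chromosome 9 from 14809605 to 14849922 (ENSMUSG00000031934.7). Its start region (14849197-14850256), over exon 1, was called at day 9 with a score of 455.0 (percentile 65.1) and at day 28 with 239.9 (percentile 39.2). Day 9 alone added 266.6 in intron 2 and 145.7 beyond the 3′ end.

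*Panx3* encodes the pannexin of cartilage and bone, which is induced as osteoblasts mature. It lies on the minus strand of chromosome 9 from 37467487 to 37476807 (ENSMUSG00000011118.3). Its promoter region (37476439-37477725), centred at -264 bp from the start at day 9, scored 673.1, 3163 and 2315, at percentiles 82.3, 97.6 and 92.9. These were the best-ranked peaks of the 7 genes at days 0 and 28, and at day 9 it shared the top tie with the *Cdh4* region at 158 kb. The TGTGGT in capitals in the printed promoter lies at 37477083-37477088, at -276 to -281 bp from the start. The second region in the window was called each time at percentiles 76.2, 84.6 and 70.1. It was centred at -22 bp from the start of the neighbouring gene *Tbrg1*, so 1 of the 2 *Panx3* peaks at each time point lay at another gene's start.

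**Figure D4:**
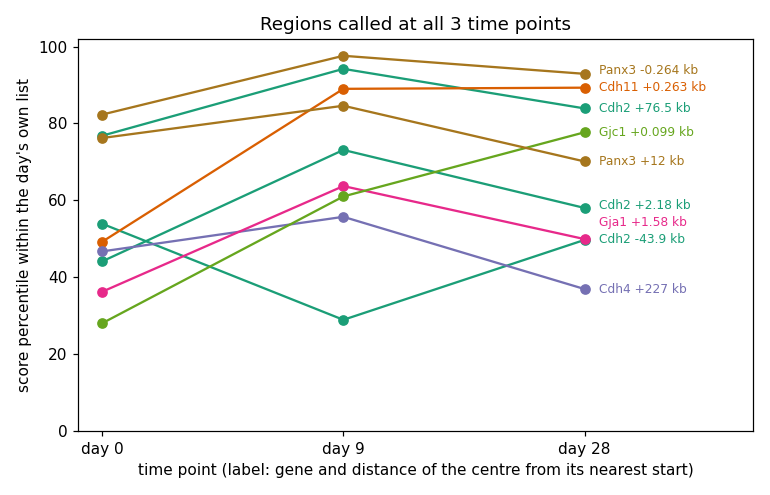
Lines join the score percentiles (vertical, within each day's own list) of the 9 member regions called at days 0, 9 and 28 (horizontal), labelled by gene and by distance in kb of the region centre from the closest annotated start of that gene, negative upstream. The *Panx3* promoter is highest at each time point, and the *Gjc1* start is at 28.0 at day 0 and 77.7 at day 28, ranks from lists of different length.

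Of the 53 regions 9 were called at all 3 time points (17%, against 27.4% of all regions), 8 at days 9 and 28 (15.1% against 21.1%) and 27 at day 9 alone (50.9% against 34.5%). A further 8 were called at day 28 alone (15.1% against 7.59%) and 1 at day 0 alone (1.89% against 5.60%). None was called at days 0 and 9 alone or at days 0 and 28 alone, patterns held by 1.69% and 2.06% of all regions. *Cdh4* set much of this distribution. Among the 23 regions of the other 6 genes, 8 were called each time, 5 at days 9 and 28, 4 at day 28 alone and 6 at day 9 alone.

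Introns held 37 of the 53 centres (69.8%, against 42.7% of all regions) and exons 8 (15.1% against 14.0%). Outside *Cdh4* introns held 10 of 23. The 6 regions centred within 1 kb of a start had a median GC content of 64.7% and a median CpG ratio of 0.774, compared with 54.2% and 0.196 in the 47 others. The 53 regions as a whole had a median width of 657 bp and a GC content of 54.2%, against 702 bp and 53.2% for all regions.

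TGTGGT on either strand lay within 50 bp of the centre in 12 of the 53 regions, 22.6% with an exact binomial 95% interval of 12.3% to 36.2% that covers counting error only. In all regions the share was 24.7%. TGTGGT was also searched from 450 to 550 bp on both sides of the centre, a longer stretch in total than the central window. It lay in either flank of 11.3% of the 53 regions and 14.0% of all. Because more sequence was searched there, these shares are not directly comparable with those at the centre. Of the 12 regions, 8 were in the *Cdh4* window, which held 30 of the 53 regions. More than 1 copy was found in 7, for which no share over all regions is given. Day 9 alone was the pattern of 9, out of 27 member regions with that pattern, and 32.3% of all regions with that pattern had the core. In the whole series 7544 of the 16695 regions with the core were called at day 9 alone. Of the 9 regions called at all time points, those at the *Panx3* promoter and in *Cdh2* intron 15 had the core. With the variant TGCGGT accepted as well, 15 of the 53 regions (28.3%) had a match within 50 bp, against 27.4% of all. Outside *Cdh4* these were 7 of 23 regions, compared with 4 of 23 for TGTGGT alone. The AP-1 sequence TGANTCA was found in 1 region (1.89%, against 4.21% of all) and the TEAD sequence GGAATG in 3 (5.66% against 6.26%), both within the same 50 bp and on either strand.

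Internal repeats were measured as the share of the bases within 100 bp of the centre covered by 12-base words that occur more than once there, a measure added after the sequences were seen. At least 50% of the bases were repeated in 9 of the 53 regions (17%), against 10.7% of all regions. They comprised 7 of the 30 *Cdh4* regions, 1 region 3′ of *Gjc1* (71.6% of bases) and 1 region 3′ of *Panx1* (78.6%). By time, 8 were called at day 9 alone and 1 at days 9 and 28. In the whole series 27.2% of the regions called at day 9 alone were of this kind, compared with 0.576% of those called at all 3 time points and 5.09% of those at days 9 and 28. The part that repeats play in the day 9 peaks was not tested. Without these 9 regions the 7 genes had 36 day 9 peaks, and *Cdh4* had 18.

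**Figure D5:**
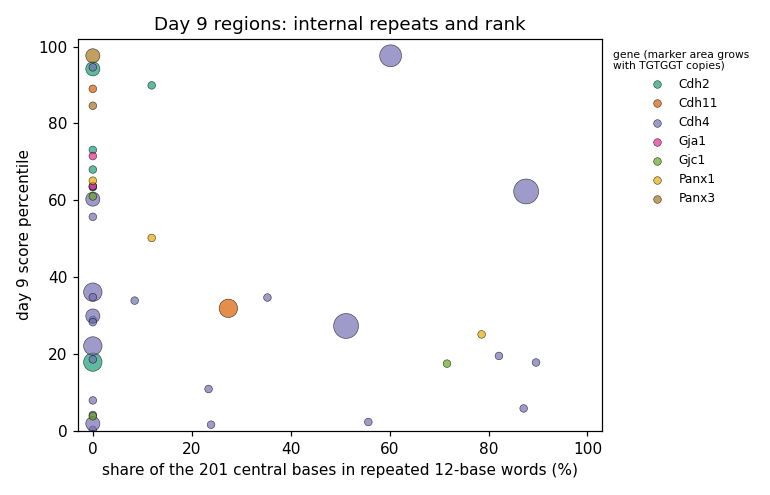
Each point is a member region called at day 9, by the share in percent of the bases within 100 bp of its centre in repeated 12-base words (horizontal) and its day 9 score percentile (vertical), coloured by gene, with marker area growing with the copies of TGTGGT within 50 bp of the centre. Most points lie at 0% repeats, and among those above 50% the *Cdh4* region at 158 kb is at percentile 97.6.

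Of 19 other cadherin genes, 7, 11 and 8 had a peak in the window at days 0, 9 and 28, and 0, 2 and 2 had one within 1 kb of a start. The latter were *Cdh22* and *Cdh24*, while 2 of the 3 cadherins examined above had a start peak at both later time points. *Cdh22* was also the gene of the 44 relatives and partners with peak numbers most like those of *Cdh4*, 7, 25 and 7, in a window of 163 kb. Of 18 other connexins 11, 11 and 12 had a peak, and 6, 5 and 6 had one within 1 kb of a start. *Panx2* had 2, 8 and 4 peaks, with a start peak at days 9 and 28. Of the 6 genes for junction partners, catenins among them, 6, 5 and 6 had a start peak. Start peaks were thus not particular to the 7 genes. The catenin genes *Ctnnb1*, with 3, 8 and 6 peaks, and *Ctnnd1*, with 3, 7 and 5, were closest to *Cdh2*. *Gja10*, with 2, 3 and 2, was closest to *Cdh11*, *Gjc1* and *Panx3*, and *Gja6* was closest to *Panx1*. Likeness was the sum of the absolute differences of the 3 peak numbers.

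The 6 osteoblast genes counted in the same way (*Sp7*, *Bglap2*, *Ibsp*, *Spp1*, *Alpl*, *Col1a1*) had medians of 4.5, 12.5 and 9 peaks, and all 6 had a start peak at days 9 and 28. The 6 genes typical of liver, pancreas, heart, glia and lymphocytes had medians of 0.5, 1 and 1 and no start peak.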

How the data were processed

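Per the labels, reads were aligned to mm9 with Bowtie 0.12.8, after base calling with CASAVA 1.6, and peaks were called with MACS 1.4.1 on the pooled replicates against input at a p-value threshold of 1e-10. The authors deposited 1 peak list per time point with a score for each peak, 10 times the negative log10 p-value, and these scores were used unchanged. The lists hold no read counts, and read depth was not used here.

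The values of 2 further genes of the comparison lists are not reported here. The members, gene lists and measures were chosen with earlier results of these data known. All 7 members are named, with their best-ranked region at each time point, regions within 1 kb of a start and, where 5 or fewer, those called at day 0. Peaks were assigned to windows, merged by an overlap of at least 1 bp, and located by the centre of the best-ranked peak of each region with protein-coding transcripts of GENCODE M1 (Ensembl 65). A percentile is the mid-rank share of a list's peaks, with tied peaks split evenly below and above. No peak ended past a chromosome of NCBIM37, from which sequences were read. Intervals are exact binomial (Clopper-Pearson). Alternatives covered the score threshold, window, overlap, list length and motif window, and 2 were added after seeing the data. The tools were NumPy 2.4.6 and SciPy 1.17.1 under Python 3.11.15, with figures by Matplotlib 3.10.9, and the procedures were tested on simulated data.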

Additional observations from a re-analysis of the deposited data

How the results depend on the processing

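The score threshold mattered most. With a score of at least 200 required, the 7 genes kept 20 of 45 day 9 peaks and 22 of 53 regions. At 500 they had 3, 11 and 7 peaks at days 0, 9 and 28 and 11 regions, *Panx3* alone kept its 2, 2 and 2, and *Panx1* had none. With the same number of top-scoring peaks taken from each list there were 18 day 9 peaks, 16 day 28 peaks and 22 regions, and *Cdh4* had 2, 5 and 1. Restricted to peaks whose nearest start was the member's own, 24 day 9 peaks and 29 regions were left. Apart from those at *Adam11* and *Tbrg1*, the regions dropped were *Cdh4* regions. Their nearest start was that of *Gm10711*, a protein-coding gene that lies within *Cdh4* near its 3′ end. *Cdh4* then had 1, 6 and 2 peaks at days 0, 9 and 28. Without *Cdh4*, an alternative chosen after seeing the data, there were 20 day 9 peaks and 23 regions. TGTGGT searched in the whole region was found in 64.2% of the 53, and in 64.0% of all regions. The other settings, including the removal of the repeat-rich regions, moved these totals by less than 1.5 times and left the share with TGTGGT inside its interval. That removal was also chosen after seeing the data. Over all settings the number of genes with more peaks at day 9 than at day 0 ranged from 4 to 7. It was 4 only at a score of at least 500. Just inside the window limit were day 9 peaks 19.4 kb from *Gjc1* (score 105.2) and 17.9 kb from *Cdh4* (178.5), and just outside were those at 20.7 kb from *Cdh4* (304.4) and 21.0 kb from *Gjc1* (294.6).

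No paired analysis was possible because each time point has 1 list made from pooled replicates. For the same reason no library was left out. Binding that did not reach the threshold is not in these lists.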
